A study of Anguilla japonica with 6 samples.

Results

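The ovary of the Japanese eel (Anguilla japonica) was described on its own, from the 3 ovary libraries of a set of 6 gonad libraries. The members are the samples whose tissue label is ovary, 3 of 6. The other 3 are testes, which serve here only as a second tissue for properties of whole libraries. The ovaries came from 3 different females and the testes from 3 different males, all reared in aquaculture and taken at the silver stage, with gonads that were differentiated but immature and without hormone induction. The labels give no age, stage of the follicles or genotype. Each library is whole gonad, so oocytes, follicle cells, connective tissue and blood are mixed, and fewer cells of a type and less RNA per cell cannot be told apart. Short reads had been counted on 35011 full-length transcripts built from long reads, 22549 from ovary and 12462 from testis. Reads are therefore seen only where those long reads gave a transcript.

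A silver eel is at the stage that precedes the spawning migration, and eels in captivity do not mature further without hormones. A fish oocyte spends a long growth phase arrested in the prophase of meiosis, and in that time it stores messenger RNA, ribosomes, lipid and later yolk for the embryo. It also builds an egg envelope of zona pellucida proteins, and holds cyclins and translational regulators that are used when meiosis resumes. Around it lie follicle cells, which make steroids and answer growth factors sent by the oocyte.

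Levels are FPKM, fragments per kilobase of transcript scaled to the size of the library, summed over all transcripts that share a gene symbol. Symbols came from the vertebrate protein match of each transcript. There were 9262 symbols on 31079 transcripts, and 3932 transcripts had none and were kept as single units. Totals were 17261144, 15096728 and 18508307 counts in the ovaries and 13616804, 13330256 and 11913969 in the testes. The FPKM of ovary 1, 2 and 3 summed to 752630, 721650 and 821037. Of the symbols, 8415 had a mean of at least 1 FPKM over the ovaries, 5199 at least 10, 791 at least 100 and 86 at least 1000, and 24 were at 0 in every ovary. The 4 oocyte markers fitted the label. zp3 was the most abundant symbol and zar1 ranked 20th, and bmp15 and gdf9, growth factors that oocytes secrete, ranked 1330th and 1935th.

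The libraries differed in ribosomal RNA and in the weight of short transcripts, which touches several values. Of the transcripts, 38 matched ribosomal RNA by their nucleotide hit, and they held 5.82%, 2.86% and 0.388% of the counts in ovary 1, 2 and 3, against 1.22%, 6.99% and 5.22% in testis 1, 2 and 3. Ovary 3 thus had the least of all 6. These transcripts form a class of their own below. The deposited FPKM also divide by less than the full length: from the counts, the length used was shorter than the transcript by a median of 250 bases in ovary 1, 246 in ovary 2 and 276 in ovary 3 for transcripts longer than 2500 bases. The FPKM of short transcripts are raised by this. The 72 transcripts of up to 500 bases held 8.62%, 6.86% and 13.6% of the FPKM in ovary 1, 2 and 3, but 1.19%, 0.928% and 1.76% of the counts.

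A few genes filled much of each ovary library. The 50% point of the summed FPKM was reached with 90, 127 and 88 genes in ovary 1, 2 and 3, where transcripts without a symbol count as genes of their own. The 75% point took 786, 992 and 683 genes, and the 90% point took 2800, 3103 and 2547. Each library thus joined a handful of very abundant genes or transcripts to a long tail of genes at low levels. The 10 most abundant genes of each library held 28.4%, 24.7% and 27.5% of the FPKM in the ovaries, against 10.7%, 18.1% and 22.6% in the testes. All ovaries lay above all testes, with a difference of 9.78 percentage points. An exact two-sided permutation test gave p = 0.1, the smallest that 3 against 3 allows, and 0.15 after Benjamini-Hochberg adjustment over the 6 library properties tested. In ovary 1 and 2 the first 10 included transcripts that matched 28S ribosomal RNA, which are not messages. With all transcripts that matched ribosomal RNA left out, the first 10 held a mean of 26.0% in ovary and 17.2% in testis, a difference of 8.75 points. For the number of genes at the 50% point the testes had 110, 44 and 39, which overlapped the ovaries (exact permutation p = 0.3, adjusted 0.36).

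**Figure D1:**
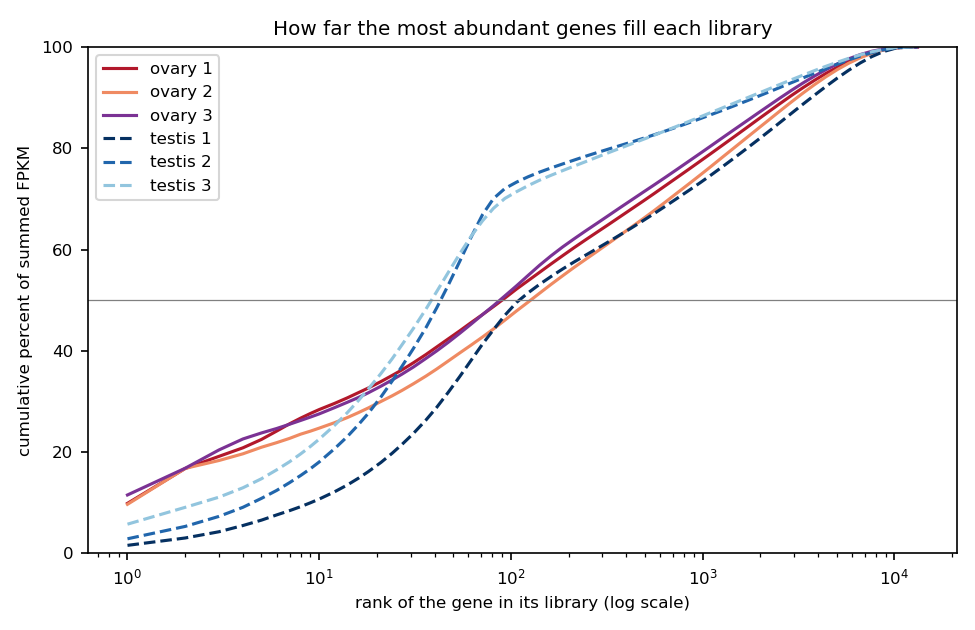
Cumulative percent of the summed FPKM (vertical axis) against the rank of the gene within its library (horizontal axis, log scale), for ovary 1 to 3 (solid lines) and testis 1 to 3 (dashed lines). The ovary lines start higher, at the share of zp3, and cross the grey line at 50% with 90, 127 and 88 genes.

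The egg envelope genes led the ranking. These encode the zona pellucida glycoproteins, which form the coat around the oocyte. zp3 had 74370, 69927 and 94716 FPKM in ovary 1, 2 and 3, a mean of 79671 ± 13218 (SD, n = 3), which was 10.4% of all FPKM. zp4 had 51765, 51214 and 43359 FPKM. zp3 was highest in ovary 3, where zp4 was lowest. The other members were lower: zp1 had 10719, 9546 and 9771 FPKM, and zp2 had 5803, 4315 and 5516 FPKM. The order zp3, zp4, zp1, zp2 held in every ovary and the levels of neighbours in it did not overlap. The ratio of zp3 to zp4 was 1.44, 1.37 and 2.18 in ovary 1, 2 and 3, and that of zp3 to zp2 was 12.8, 16.2 and 17.2. Between fish, zp3 and zp4 varied by 16.6% and 9.64% (coefficient of variation, CV, the SD as a percentage of the mean). These CVs are of FPKM as deposited, whose sums differ between libraries, and not of shares. As a share of all FPKM, zp3 held 9.88%, 9.69% and 11.5% in ovary 1, 2 and 3. Added up, the 4 genes held 19.0%, 18.7% and 18.7% of the FPKM (18.8% ± 0.151, SD, n = 3). That agreement depends on what is counted: with the transcripts that matched ribosomal RNA left out of both the genes and the total, the share was 19.8%, 19.2% and 18.6%, and by counts it was 20.7% ± 1.58 (SD, n = 3). One of the zp3 transcripts matched ribosomal RNA and held 1.43% of the gene's FPKM. It is left out of the class of envelope genes below, which held 18.6% ± 0.0714 (SD, n = 3). Testis 2 held 13099 FPKM of zp3, against 572 and 4190 in testis 1 and 3, so the envelope message was not absent from the testis libraries.

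Among the other leading genes were a metallothionein, cyclins, a maternal RNA-binding protein and the translation machinery. mta, a metallothionein that binds zinc and copper, had 12423, 11217 and 17799 FPKM and was the third of all symbols. It rests on a single transcript of 432 bases, so its FPKM are among those raised by the short length. nme2, a nucleoside diphosphate kinase, had 3776, 3219 and 5094 FPKM. nqo1, a quinone reductase, had 3283, 3103 and 2746, and ctss, the lysosomal protease cathepsin S, had 2588, 2650 and 3807. hspa8, the constitutive Hsp70 chaperone, had 3038, 2492 and 2838. The elongation factor eef1a had 3509, 3287 and 3960 FPKM, and zgc:112234, which is annotated as a histone H2B, had 2894, 2172 and 2927. Of these, nqo1, hspa8 and eef1a varied by less than 10% between fish, with CVs of 8.99%, 9.90% and 9.56%. The ranking itself was stable. Of the 25 most abundant symbols by mean, 18 were among the first 25 of every ovary and 24 were among the first 50 of every ovary.

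The exception was nlrc3, named for an innate immune receptor, which ranked seventh with 8512, 3669 and 167 FPKM in ovary 1, 2 and 3. Its 2 most abundant transcripts both matched ribosomal RNA by nucleotide hit. The values of nlrc3 followed the order of the ribosomal RNA share in the 3 ovaries. They are given as the level of this annotation only.

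**Figure D2:**
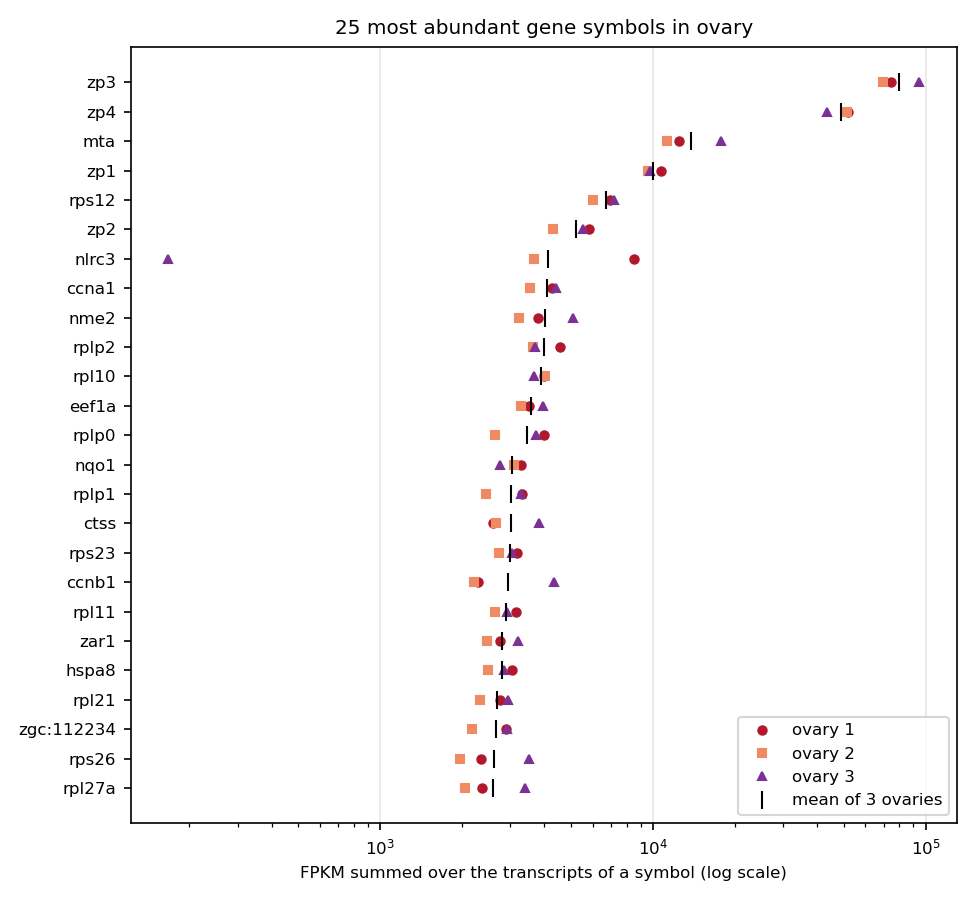
FPKM (horizontal axis, log scale) of the 25 most abundant gene symbols in ovary 1 (circle), ovary 2 (square) and ovary 3 (triangle), with the mean as a bar, in order of the mean from the top. zp3 and zp4 stand clear of all others, and nlrc3 is the symbol whose ovaries lie farthest apart, at 8512, 3669 and 167 FPKM.

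Symbols were grouped into 37 functional classes by their names. The lists were trimmed after values were seen. Counts of class members at a level, given here and below beside those of all symbols, are therefore description only. The cytosolic ribosomal proteins were the next class after the envelope genes, with 13.6%, 12.7% and 15.3% of the FPKM in ovary 1, 2 and 3 (13.9% ± 1.30, SD, n = 3). Of 74 such symbols, 73 had a mean of at least 100 FPKM, against 791 of all 9262, and their median was 1151 FPKM. They took 46 of the first 100 places. rps12 led them with 6934, 6041 and 7202 FPKM, followed by rplp2 with 4573, 3632 and 3703 and rpl10 with 3978, 4009 and 3669. Since these transcripts are short, the class held only 4.13% ± 0.347 of the counts, and 10.1% ± 0.693 when counts were divided by the full transcript length (SD, n = 3 each). Translation factors and tRNA synthetases added 2.06%, 2.23% and 2.14% of the FPKM, with eef1b at 2186, 2263 and 2835 FPKM and eif5a at 1521, 1415 and 1336. In the authors' KOG annotation, which placed 22502 transcripts in a single category, translation and ribosome biogenesis held 28.9%, 26.9% and 31.5% of the FPKM that had a category.

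Redox and metal handling held 2.84%, 2.80% and 3.05% of the FPKM, of which mta was the largest part. The class list leaves out the quinone reductase nqo1, whose levels are given above. By counts the class held 1.08% ± 0.0661, and over the full transcript length 2.03% ± 0.0730 (SD, n = 3 each). Next to mta within the class stood gstp1, a glutathione transferase, with 2391, 3547 and 1123 FPKM, and txn, thioredoxin, with 1185, 1052 and 1892. The second glutathione transferase symbol of this kind, gstp2, had 1703, 892 and 290 FPKM. Both gstp symbols were lowest in ovary 3, and their sum, 4094, 4439 and 1414 FPKM, still had a CV of 49.9%. The peroxiredoxin prdx1 had 747, 767 and 792 FPKM and hardly varied.

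Genes of meiotic arrest and the cell cycle held 2.14%, 2.21% and 2.57% of the FPKM. A mean of at least 10 FPKM was reached by 86 of their 105 symbols, against 5199 of all 9262. ccna1, a cyclin A form of germ cells, had 4261, 3542 and 4410 FPKM. It was 10.2, 9.09 and 8.74 times as abundant as ccna2, the cyclin A of dividing somatic cells, in ovary 1, 2 and 3. ccnb1, the cyclin B that with the kinase cdk1 forms maturation promoting factor, had 2291, 2210 and 4346 FPKM. Ovary 3 was thus about as high as both others added up, and ccnb2 shifted with it, at 625, 617 and 1185 FPKM, so that ccnb1 over ccnb2 stayed at 3.66, 3.58 and 3.67. cdk1 did not follow, with 513, 457 and 398 FPKM, and ccnb1 over cdk1 was 4.46, 4.84 and 10.9. The securin pttg1, which holds back the separation of sister chromatids, had 1196, 1293 and 1787 FPKM. cdc20, an activator of the anaphase promoting complex, had 1043, 1477 and 1417. mos, the kinase that keeps a mature egg arrested, was present in all ovaries with 192, 167 and 281 FPKM, and the spindle checkpoint gene mad2l1 had 343, 338 and 392.

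Oocyte RNA-binding and translational control genes held 1.05%, 1.11% and 1.18% of the FPKM. A mean of at least 100 FPKM was reached by 13 of their 52 symbols, against 791 of all 9262. zar1, which binds maternal messages in the oocyte, had 2738, 2462 and 3211 FPKM. larp6, a La-related RNA-binding protein, had 928, 1084 and 1342, and rbpms2, which in zebrafish is needed for oocyte fate, had 524, 811 and 657. A further pair hardly differed between fish: cirbp-b, a cold-inducible RNA-binding protein, had 1061, 1055 and 1095 FPKM, and cpeb1, which controls the polyadenylation of stored messages, had 320, 314 and 331. The CVs were 2.03% and 2.59%.

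Transcription factors of oocytes and germ cells made up 0.400%, 0.358% and 0.422% of the FPKM over 17 symbols. The forkhead gene foxn5 led with 1657, 1238 and 1274 FPKM. gtf3a, which in Xenopus oocytes drives 5S ribosomal RNA genes and stores their product, had 434, 349 and 497. sox3 had 221, 193 and 214 FPKM. figla, a regulator of envelope genes in vertebrate oocytes, had 155, 199 and 747 FPKM, so ovary 3 stood far above the others. zp3 was also highest in ovary 3, but zp4 was lowest there, and zp1 and zp2 were highest in ovary 1. A link of figla to the envelope genes was not tested. The related sox19a and sox19b went opposite ways, with 34.7, 19.1 and 58.6 FPKM against 98.8, 128 and 84.0, and their sum of 134, 147 and 143 FPKM had a CV of 4.82%. How reads of such near copies were divided is not given, so the split between them is uncertain.

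Growth factors made by the oocyte and their receptors held 0.188%, 0.209% and 0.221% of the FPKM, and most of that was dvr1. This gene encodes the zebrafish Vg1 protein, a maternally supplied member of the TGF-beta family, and had 1053, 1131 and 1496 FPKM. bmp15 had 57.0, 66.2 and 63.9 FPKM and gdf9 had 53.2, 44.7 and 32.5, so the ratio of bmp15 to gdf9 was 1.07, 1.48 and 1.97. The 2 genes were near each other in ovary 1 and apart in the others. Of the 28 symbols in this class, 23 had a mean of at least 1 FPKM, against 8415 of all 9262 symbols. After dvr1 no member reached 100. smad2, which carries activin-type signals, had 50.6, 68.1 and 51.5 FPKM.

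Germ line and piRNA genes, which protect the germ line genome against transposons, held 0.176%, 0.198% and 0.206% of the FPKM. gtsf1, a partner of PIWI proteins, had 608, 740 and 1045 FPKM, piwil1 had 160, 159 and 114, and ddx4, the vasa helicase, had 144, 112 and 97.6. All 3 were present in every fish. A mean of at least 10 FPKM was reached by 15 of the 18 symbols of the class, against 5199 of all 9262. Genes of meiotic chromosomes were lower, at 0.0434% ± 0.00184 of the FPKM (SD, n = 3). sycp2l, which in mammals belongs to the chromosomes of oocytes, was the exception with 150, 140 and 146 FPKM. The genes listed as spermatogenic markers, hormad1, sycp3, dmc1, mei1, drc7, ccdc39 and tekt1, summed to 13.8, 16.3 and 9.89 FPKM in the ovaries. In the testes they summed to 1019, 503 and 573 FPKM. Some of the list act in meiosis, such as sycp3, with 8.04, 11.5 and 4.86 FPKM in ovary 1, 2 and 3. Oocytes also enter meiosis, so the sum is not a measure of male cells. Of the 7, 3 had an ovary mean of at least 1 FPKM, against 8415 of all 9262 symbols.

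Genes that take up, carry and store lipid held 0.217%, 0.237% and 0.232% of the FPKM. fabp4, a fatty acid carrier, had 707, 664 and 969 FPKM. vldlr, the receptor that brings vitellogenin into fish oocytes, had 257, 384 and 265, and plin2, a coat protein of lipid droplets, had 100, 96.7 and 159. Each was present in every fish. The water channel aqp1 had 563, 545 and 756 FPKM, and slc25a5, which exchanges ADP and ATP across the mitochondrial membrane, had 2142, 2168 and 2252 with a CV of 2.62%. Endolysosomal genes held 1.06%, 1.13% and 1.04% of the FPKM, with ctsb, cathepsin B, at 726, 734 and 711.

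Steroid synthesis held 0.135%, 0.143% and 0.0908% of the FPKM over 21 symbols. By mean the class was led by cbr1, with 268, 167 and 65.6 FPKM, and hsd17b4, with 101, 156 and 151. Like the class, cbr1 was lowest in ovary 3, so the share does not stand for the genes named next alone. hsd3b, which makes progesterone from pregnenolone, had 101, 142 and 88.1 FPKM. cyp17a1, which leads to androgens, had 3.18, 25.4 and 1.16, so ovary 2 was far above the others. star, which brings cholesterol into mitochondria, was listed at 0 in every ovary. The follicle and gonadal somatic markers as a list matched 8 of 21 symbols and summed to 15.0, 38.4 and 10.4 FPKM in ovary 1, 2 and 3. Of the 8, 6 had a mean of at least 1 FPKM, against 8415 of all 9262 symbols. Within the list foxl2, a factor of granulosa cells, had 2.12, 1.90 and 1.15 FPKM, and nr5a1, which drives steroid enzymes, had 2.43, 2.88 and 2.88. The high sum in ovary 2 was thus mostly cyp17a1.

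Markers of other cell types were detected, some at higher levels than bmp15 and gdf9 and all far below zp3 and zar1. The red cell gene hbb1 had 179, 147 and 182 FPKM in ovary 1, 2 and 3. The other matched members of that list were low, with cahz at 1.24, 0.460 and 2.12 and alas2 at 0.720, 3.11 and 3.44. Of the 5 endothelial markers only vwf was matched, with 2.71, 1.42 and 1.02 FPKM. The leukocyte gene cd74 had 63.9, 63.6 and 28.7, while mpeg1 and coro1a stayed under 1 FPKM. The fibroblast genes col1a1, col1a2, dcn and lum summed to 70.8, 62.8 and 60.8 FPKM. The muscle list summed to 181, 257 and 198 FPKM, nearly all of it myl9, with acta2 at 0.910, 1.95 and 0.480. krt8, an epithelial keratin, had 75.6, 9.61 and 10.3 FPKM, while its partner krt18 had 23.2, 21.6 and 24.2. The epithelial cadherin cdh1 had 137, 143 and 122, the highest mean of the epithelial list. Within the epithelial list, krt8 set ovary 1 apart. The part of these cells in the results was not tested.

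**Figure D3:**
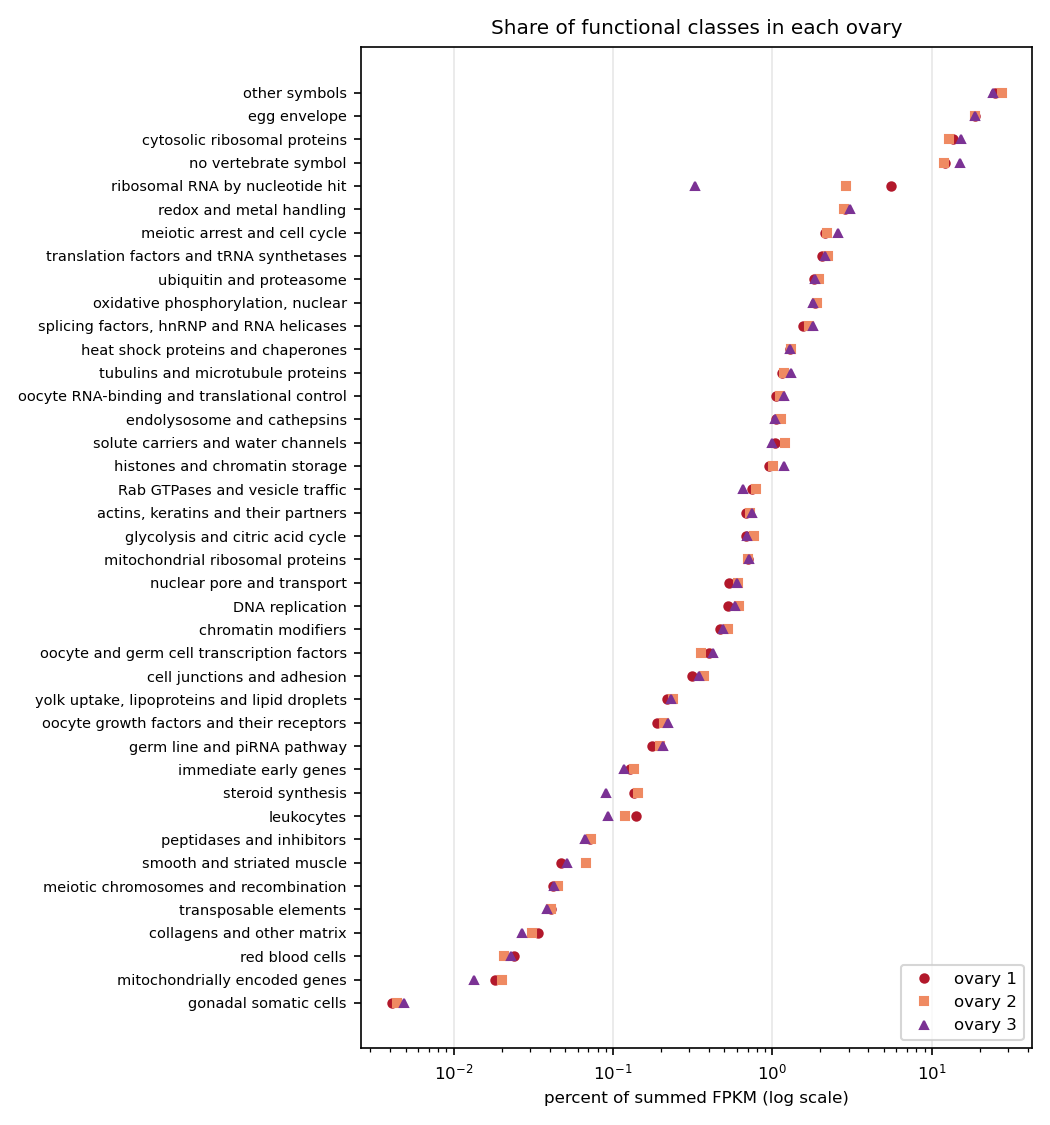
Percent of the summed FPKM (horizontal axis, log scale) of each functional class in ovary 1 (circle), ovary 2 (square) and ovary 3 (triangle), in order of the mean from the top. The top row, at a mean of 25.4%, holds the symbols outside the classes. The named classes run from 18.6% for the egg envelope genes to 0.00446% for gonadal somatic cells. The ovaries lie farthest apart for transcripts that matched ribosomal RNA, at 5.54%, 2.90% and 0.325%. Next by CV is steroid synthesis, at 0.135%, 0.143% and 0.0908%.

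Most class shares differed little between fish. Mitochondrial ribosomal proteins held 0.700%, 0.701% and 0.708% of the FPKM, and chaperones held 1.28%, 1.31% and 1.29%. Oxidative phosphorylation genes of the nucleus held 1.85% ± 0.0435 (SD, n = 3), with atp5g3, a subunit of the ATP synthase ring, at 2699, 2062 and 2684 FPKM. Histones and chromatin storage held 0.947%, 1.01% and 1.18%, with b4, the linker histone of Xenopus oocytes, at 673, 1263 and 1027 FPKM and nasp, a histone chaperone, at 705, 821 and 1089. That class leaves out 10 transcripts with a core histone domain but no symbol, which held 0.905%, 0.658% and 1.34%. All 72 transcripts with such a domain held 1.48%, 1.17% and 1.97% (1.54% ± 0.402, SD, n = 3), so core histones differed more between fish than the class. Genes encoded by mitochondria, covered by only 8 symbols with a transcript in the table, held 0.0173% ± 0.00342 (SD, n = 3). This share varied more, with a CV of 19.8%. Within ovary-built transcripts alone it was a mean of 0.00156% of their FPKM. How far the ovary long reads covered these genes was not tested. A low level and missing transcripts cannot be told apart here. Over all transcripts the same symbols held 5.41%, 2.11% and 0.528% in testis 1, 2 and 3.

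Housekeeping of proteins, RNA and chromosomes filled the middle of the ranking. Ubiquitin and proteasome genes held 1.88% ± 0.0781 of the FPKM (SD, n = 3), and ube2c, the conjugating enzyme that works with the anaphase promoting complex, led them with 1015, 658 and 1331 FPKM. uchl1, a deubiquitinase, had 282, 103 and 577. Both were lowest in ovary 2 and highest in ovary 3. Splicing factors and RNA helicases held 1.69% ± 0.118 (SD, n = 3), with snrpb, a core spliceosome protein, at 698, 583 and 1398 FPKM and the helicase ddx5 at 585, 591 and 627. Tubulins and microtubule genes held 1.22% ± 0.0844 (SD, n = 3), with tubb4b, a beta tubulin, at 1587, 1739 and 1894. DNA replication genes held 0.527%, 0.617% and 0.584%, and the sliding clamp pcna had the highest mean, with 338, 444 and 471 FPKM. mmcm3, the maternal form of a replicative helicase subunit in Xenopus, had 409, 473 and 335, above pcna in ovary 1 and 2, and gmnn, geminin, which blocks relicensing of origins, had 392, 192 and 261. The importin kpna1 had 577, 797 and 898 FPKM, and ran, the GTPase of nuclear transport, had 857, 773 and 1051.

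Genes of the cytoskeleton, the cell surface and early responses included some abundant members. actba, a cytoplasmic actin, had 1252, 1407 and 1724 FPKM, and with actb the sum was 1742, 1751 and 2038. s100a1, a calcium-binding protein with a single transcript, had 215, 227 and 781 FPKM, so that ovary 3 stood apart. cldnd, a claudin-like gene, had 1004, 1149 and 1669 FPKM. Immediate early genes, which answer stimuli within a short time, held 0.128%, 0.135% and 0.117% of the FPKM. The most abundant was btg1, an inhibitor of proliferation, with 480, 446 and 450 FPKM, while jund had 93.9, 48.8 and 61.5. Transposon-derived symbols held 0.0402% ± 0.00145 (SD, n = 3), and harbi1, a gene derived from a Harbinger transposase, had 176, 163 and 180 FPKM.

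Transcripts without a symbol held 16.2%, 14.2% and 15.3% of the FPKM in the ovaries, against 8.49%, 10.9% and 14.1% in the testes. The tissues did not overlap, and the exact permutation test gave p = 0.1 (adjusted 0.15). By counts, however, the shares averaged 11.5% in ovary and 11.4% in testis, a difference of 0.092 points (exact permutation p = 1). The most abundant of them, 410 bases long, matched a thymosin beta of salmon, a family of small actin-binding proteins, and had 12690, 6032 and 29639 FPKM in ovary 1, 2 and 3. The next 2 matched 28S ribosomal RNA, at 18076, 9370 and 1042 FPKM and at 12476, 6546 and 614. Then came an uncharacterized protein of 1334 bases with 4491, 4294 and 4932 FPKM, and a transcript of 429 bases without any hit with 2763, 3663 and 5130. The thymosin transcript and the ribosomal RNA transcripts were thus ordered oppositely in ovary 1 and ovary 3. Transcripts without a hit in any database numbered 1323 and held 1.97% ± 0.160 of the FPKM (SD, n = 3).

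At the level of genes the ovaries were alike. On the log2(FPKM + 1) scale, Pearson's r across the 9262 symbols was 0.966 for ovary 1 and 2, 0.953 for ovary 1 and 3, and 0.955 for ovary 2 and 3. These describe genes, which are not independent replicates. The median CV was 22.4% over the 8415 symbols with a mean of at least 1 FPKM, and 17.5% over the 791 with at least 100. Among 1678 symbols with a mean of at least 50 FPKM, counting error would give a median CV of 1.96%, against the 17.9% that was measured. In 226 of these, 13.5%, the highest ovary was at least 2-fold above the lowest. Of the 226, 121 were highest in ovary 3, 55 in ovary 2 and 50 in ovary 1. Of all 1678, 748 were highest in ovary 3, 555 in ovary 2 and 375 in ovary 1. These counts use FPKM as deposited, which summed to 821037 in ovary 3 against 752630 and 721650 in ovary 1 and 2. A gene with the same share of each library is therefore highest in ovary 3, and the counts were not repeated on rescaled FPKM. Cytosolic ribosomal proteins were among the classes with more of the 226 genes, 16 of 73, and none of the 21 glycolysis and citric acid cycle genes nor of the 4 envelope genes was among them.

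In the median, short genes were higher in ovary 3. Symbols with a mean of at least 10 FPKM were sorted by their length, weighted by FPKM. For the 31 symbols of up to 500 bases, the median log2 ratio of ovary 3 to the mean of the others was 0.78, against 0.01 for the 2095 symbols of 1500 to 2500 bases. The median CV of the short ones was 34.4%, and single genes went other ways, such as usmg5, of 401 bases, which was lowest in ovary 3. Ovary 3 also had the largest difference between the transcript length and the length used for FPKM. The part of length in these values was not tested.

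Among the symbols with a mean of at least 50 FPKM, those with the largest CV were mostly high in a single fish. With n = 3 a very large CV needs a single high value, so this pattern follows from the ranking. mkrn4p, a makorin-type ubiquitin ligase, had 182, 0.200 and 0.270 FPKM. cfap161, named for a ciliary protein, had 376, 0.600 and 49.2, and hepacam, a cell adhesion gene, had 710, 20.4 and 8.01. g2e3, a ubiquitin ligase, had 5.62, 6.66 and 335, ita, an apoptosis inhibitor, had 21.5, 2.08 and 128, and mterf1, a mitochondrial transcription factor, had 22.2, 53.1 and 329. The first trio was highest in ovary 1, the second trio in ovary 3. Unlike hepacam, hepacam2 was lowest in ovary 1, with 17.9, 284 and 143 FPKM. The sum of hepacam and hepacam2 was 727, 304 and 151 FPKM with a CV of 75.7%. hsp90ab1, the constitutive Hsp90, had 74.0, 3.67 and 392 FPKM, but with its copy hsp90aa1, at 787, 894 and 1057, the sum was 861, 897 and 1449 with a CV of 30.8%. usmg5, a small mitochondrial protein, had 81.1, 311 and 44.1. At the other end, the splicing factor srsf11 had 175, 174 and 173 FPKM, and the microtubule-severing katna1 had 56.7, 56.1 and 56.1. The GTPase rraga, which signals amino acids to TOR, had 117, 117 and 115. The CV of each lay below its counting error, at 0.600% against 1.48% for srsf11 and 0.657% against 2.27% for katna1. This end too follows from the ranking, so it does not show that these genes are steadier than others. The FPKM are as deposited and their sums differ between libraries, so near-equal FPKM are not equal shares.

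**Figure D4:**
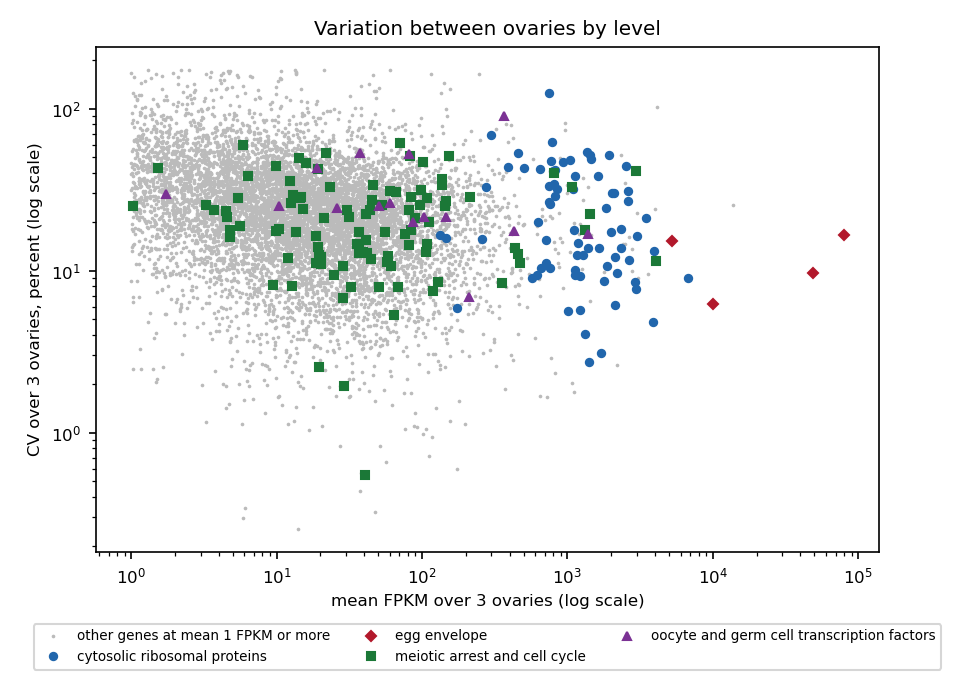
Coefficient of variation over the 3 ovaries in percent (vertical axis, log scale) against the mean FPKM (horizontal axis, log scale), 1 point per gene symbol with a mean of at least 1 FPKM. Egg envelope genes (diamonds) lie at the far right with CVs of 6.22% to 16.6%, while ribosomal proteins (circles) spread more widely, with rps16 lowest at 2.72%.

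Single transcripts were far less stable than genes. Over all 35011 transcripts Pearson's r was 0.718, 0.683 and 0.644 for the same pairs of ovaries, and the median CV was 64.9% over the 25964 transcripts with a mean of at least 1 FPKM. There were 4161 symbols with more than 1 transcript and a mean of at least 10 FPKM. In 1335 of these (32.1%) the same transcript led in every ovary, in 1797 (43.2%) it led in 2 of them, and in 1029 (24.7%) each ovary had its own leading transcript. The share with the same leader was 53.8% for genes with 2 transcripts and 12.8% for genes with more than 10. With more transcripts a shared leader is also less likely by chance. The median CV was 19.5% for the gene and 42.5% for its dominant transcript, the one with the highest mean over the ovaries. The dominant transcript varied more than its gene in 3468 of the 4161. That choice favours transcripts high in a single ovary, and parts tend to vary more than their sum, so this is description only. A different measure took, in each library, the transcript that led in that library, which can differ from fish to fish. It held a median of 58.5%, 59.0% and 58.9% of its gene's FPKM in the ovaries. In the testes the medians were 57.2%, 59.0% and 61.1% (exact permutation p = 0.8). These medians cover genes with more than 1 transcript and at least 1 FPKM in that library, 6128, 6138 and 6067 in ovary 1, 2 and 3.

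The envelope genes spanned the whole range. zp3 was spread over 228 transcripts, of which 12 were needed for 50% of its mean FPKM. Its most abundant transcript on average, 1574 bases long, held 20.2%, 9.97% and 0.0291% of the gene in ovary 1, 2 and 3, while another of 1672 bases held 0.604%, 1.55% and 11.2%. zp1 was carried mainly by a single transcript of 1761 bases, with 96.8%, 98.5% and 97.5% of the gene. zp4 and zp2 were split over 96 and 40 transcripts, and the leading zp4 transcript held 34.2%, 8.70% and 2.39%.

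Transcripts also shifted in other oocyte genes. For ccna1, whose sum had a CV of 11.4%, a transcript of 1648 bases held 73.2%, 14.0% and 0.332% of the gene, and another of 1908 bases held 0%, 0% and 44.9%. The leading ccnb2 transcript held 4.81%, 10.6% and 82.5% of a gene whose sum was itself highest in ovary 3. zar1 kept its leader, of 1106 bases, at 53.7%, 57.2% and 51.2%, while its second transcript held 42.9% and 31.9% in ovary 1 and 3 and 1.002% in ovary 2. bmp15 and mos each had 1 transcript, of 2516 and 2226 bases. Whether the transcripts of a gene are splice forms, alleles or gene copies was not tested. The division of reads among near-identical transcripts has no stated method, so the level of a single transcript is less certain than the sum. Sums are uncertain too where near copies carry different symbols, as for sox19a and sox19b.

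**Figure D5:**
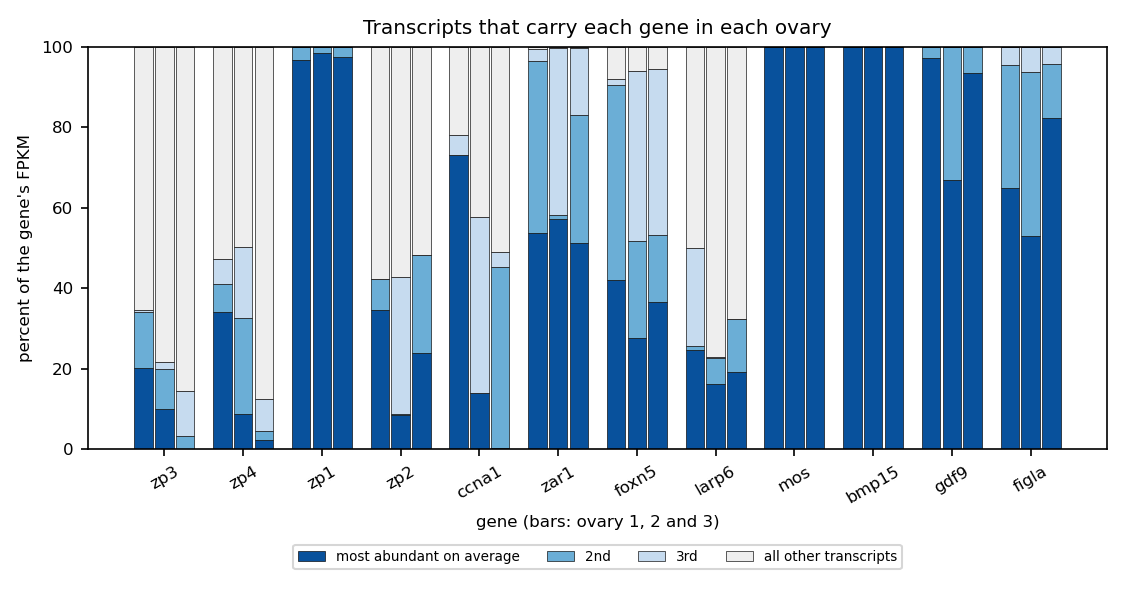
Percent of a gene's FPKM (vertical axis) carried by its 3 most abundant transcripts by mean, and by all others, for 12 oocyte genes, with a bar each for ovary 1, 2 and 3. mos and bmp15 rest on a single transcript, zp1 rests mainly on 1 of its 3, and the leading ccna1 transcript holds 73.2%, 14.0% and 0.332%.

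Long reads gave another view of the ovary. By the usual naming of such transcripts, the ovary-built ones carried 124962 supporting full-length reads. zp3 had the most, 2778, followed by kpna2, an importin, with 794, zp4 with 699 and nasp with 594. Envelope genes held 2.92% of these reads. Of the FPKM of short reads they held a mean of 22.1% within ovary-built transcripts and 18.6% within all transcripts. Support is a number of long reads and FPKM is scaled to length, so these shares are unlike measures. Across the 9262 symbols the support correlated with the ovary FPKM by a Spearman rho of 0.442, and with the testis FPKM by 0.146, as a description across genes. eif3b, a subunit of an initiation factor, had 530 reads at 228 FPKM, while rps12, the fifth by FPKM, had no ovary-built transcript at all. Of the 1671 symbols built from testis long reads only, 528 had at least 10 FPKM in the ovary, and rps12, rps23 and rpl11 were the most abundant of them.

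The libraries also differed as wholes. Transcripts built from the same tissue took 75.3%, 77.6% and 82.0% of the counts in the ovaries, against 63.4%, 51.3% and 50.2% in the testes, a difference of 23.3 percentage points. Of the 35011 transcripts, however, 22549 were built from ovary and only 12462 from testis. The shares of the tissues thus start from unequal bases, and the difference cannot be read apart from that. The number of symbols at 1 FPKM or more was 8349, 8361 and 8182 in the ovaries, against 8575, 8667 and 8579 in the testes. Neither pair of ranges overlapped, but with FPKM rescaled to equal library sums the difference in symbols was -88.3 in place of -310 (exact permutation p = 0.4). As deposited, the exact two-sided permutation test gave p = 0.1 for each, the smallest it can give, and 0.15 adjusted over the 6 properties, so none of the 6 passed 0.05.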

How the data were processed

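RNA from ovary and testis was extracted with TRIzol and made into libraries with the NEBNext Ultra RNA kit, per the labels' protocols. Per the submitters' processing notes, the tools included featureCounts 1.5.0-p3, HISAT2 2.0.5, fastp and CASAVA 1.8, with no role for each. No source used here names the program that made the values, or a genome build. Per the file headers, the deposited table gives read counts and FPKM per transcript in each library, and the transcript length. The read counts are treated as estimated counts, because the deposited values were whole for only 26.5% to 31.6% of the transcripts of a library. The deposited FPKM were scaled by the authors to depth and length. Their ratio to the counts shows a length shorter than the transcript, as described in the results.

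FPKM and counts were summed per gene symbol, the GN name of a vertebrate SwissProt hit in lower case. Classes were set by lists of symbols, trimmed after values were seen, so they were given no test. Transcripts that hit ribosomal RNA were a class of their own but stayed in gene sums. The tissue labels defined the groups. Only 6 properties of whole libraries were tested, each by an exact permutation test (two-sided) over 3 ovaries and 3 testes (20 splits, smallest p 0.1), with Benjamini-Hochberg adjustment. The test of genes between tissues was left out. The CV script was tested on simulated data. Counting CVs cover counting error only. Whether strand was used is not given, so overlapping and antisense genes cannot be told apart.

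Named genes were the 25 most abundant symbols, up to 4 leading symbols per class, the 10 most and 5 least variable with a mean of at least 50 FPKM, the 10 most abundant symbols with several transcripts, the markers, and the 5 most abundant transcripts without a symbol. Outside this rule, ccna2, ccnb2, cdk1, cpeb1, eif3b, hepacam2, mad2l1, mos, prdx1, rps16, sox19a and sox19b were named after their values were seen. Some genes that the rule names are left out of the text. The members and lists were chosen with earlier results of these data known. The design foresaw counts or FPKM. Tables were computed with pandas 2.3.3 and tests with scipy 1.17.1 (numpy 2.4.6) in Python 3.11.15, and figures were drawn with matplotlib 3.10.9.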

Additional observations from a re-analysis of the deposited data

How the results depend on the processing

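Depth limits little here, since counting error gives a median CV of 1.96% for genes of at least 50 FPKM, while 3 fish per tissue limit every comparison. The smallest p that 3 against 3 allows is 0.1, so p-values cannot show whether the 6 library properties are stable, and only directions and sizes are compared. Directions were kept with 2 exceptions. By shares of counts, the number of genes at the 50% point was lower in ovary, at 300 against 419 in testis, a difference of -119 genes (exact permutation p = 0.7), where FPKM gave 37.3 genes. Without testis replicate 3 the median share of each library's own dominant transcript was 0.70 points higher in ovary. Leaving out each library in turn gave differences of 24.7 to 60.2 genes at the 50% point, 6.59 to 12.5 points for the 10 most abundant genes, -1.27 to 0.70 points for the dominant transcript, 20.9 to 27.5 points for transcripts of the same tissue, -341.5 to -252 symbols at 1 FPKM, and 2.77 to 5.56 points for transcripts without a symbol. The difference in symbols at 1 FPKM was -88.3 with FPKM rescaled to equal library sums and -82.3 at a threshold of 0.1 FPKM, against -310, and that in transcripts without a symbol was 0.092 points by counts, against 4.10. With the replicate number as a block the differences are the same by construction (37.3 genes at the 50% point) and p cannot go below 0.25, so the paired fit is not informative. Shares of the 40 classes and remainders moved beyond 1 SD for 38 by counts, for 28 by counts over full length, for 24 with ovary-built transcripts alone, for 2 with symbols of any species and for 4 without ribosomal RNA hits (egg envelope, oxidative phosphorylation, chaperones and mitochondrial ribosomal proteins). With FPKM rescaled to equal library sums, the median CV of genes was 23.8% in place of 22.4%. The alternatives of full length and of leaving out ribosomal RNA hits were chosen after seeing the data.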
